A study of Mus musculus with 1279 samples.

Results

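The smooth muscle contractile apparatus was followed through the single cells of the adult mouse heart by 35 genes, chosen by name as the parts of the machine that lets a smooth muscle cell shorten. All 35 were among the 46517 genes of the count table, and each had a count in at least 1 cell. They comprise 3 actins, 3 myosin chains, 3 genes of the switch that turns myosin on and off, 11 proteins of the thin filament, 11 anchoring proteins, 2 intermediate filament proteins, and Myocd and Sncg.

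The cells, 926 of clusters 1 to 5 and 353 of clusters 6 to 8, were each sequenced as a Smart-seq2 library, a plate-based full-length method without molecular identifiers, from male mice of 10 to 20 weeks. The labels gave each cell 1 of 8 clusters and 1 of 4 strains, all on a C57Bl6/J background. C57BL6 mice carried no reporter and their cells were sorted with antibodies, giving 581 cells. In PdgfrbGFP (364 cells), Cspg4dsRED and Acta2GFP, cells were sorted by a fluorescent protein driven from regulatory sequences of Pdgfrb, Cspg4 or Acta2, so that the sort itself selected on 1 of the 35 genes in Acta2GFP. Cells with the endothelial protein CD31 were excluded by the sort, and elastase was added when Acta2GFP hearts were dissociated. The labels name no animal. Strain and sort cannot be told apart, nor can strain and plate in the 3 reporter strains, which came from 1 plate each, while C57BL6 came from 3 plates with all its mural cells on 1. The strain was therefore the replicate, and p-values measure only the spread between these strains.

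The study places clusters 1 to 5 among fibroblasts, the connective tissue cells that make matrix. Clusters 6, 7 and 8, the first of only 39 cells, are treated as mural cells, meaning the smooth muscle cells and pericytes that wrap vessels, which the labels do not state. The 4 pericyte markers were Rgs5, Kcnj8, Abcc9 and Vtn. Levels are in CPM (counts scaled to the total counts of the sum without spike-ins). The summed level of these markers averaged 17300 in cluster 8, 4773 in cluster 7 and 303 in cluster 6. In cluster 7 it was 8974 for PdgfrbGFP (9 cells), 2486 for Cspg4dsRED and 2859 for Acta2GFP. A list of 5 large-vessel smooth muscle genes (Sost, Cbr2, Eln, Ccn3 and Itga8) was taken from the study. It found them enriched in a small set of heart smooth muscle cells of these data, likely from large vessels. Their summed level averaged 3476 CPM in cluster 6, 203.5 in cluster 7 and 356 in cluster 8 (24.75 to 1142 over strains). Since the list came from these same data, a high level in 1 cluster is no independent sign of identity. The 3 C57BL6 cells of cluster 6 had a summed level of 5 fibroblast markers of 12490 CPM, in the range of clusters 1 to 5, whereas that of the other 2 strains in this cluster was 3108 and 3223 CPM. Cells had 46268 to 1302397 counts with a median of 274504. Clusters were made by the authors from these same counts, so a difference of a gene between clusters is not independent of how the clusters were drawn.

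In a smooth muscle cell, actin filaments slide past myosin filaments when calcium activates the myosin light chain kinase, which phosphorylates the regulatory light chain, and a phosphatase reverses this. Actin filaments are covered by tropomyosin, caldesmon and calponin, are attached at dense bodies and adhesion plaques, and are held in place by a desmin network. Many of these genes carry CArG boxes, which bind serum response factor, and the coactivator myocardin works through that factor. Vascular smooth muscle is known for a high content of these proteins. Pericytes of capillaries are known to hold less.

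CArG boxes, a core of A and T letters flanked by CC and GG, were looked for in the 250 bases before annotated starts. They were chosen since serum response factor is the factor these genes are known for. The RefSeq promoter table of GRCm38.p6 held 29 of the 35 genes, and 6 of the 29 had a box (20.7%), against 1.62% of the 27025 genes in the table. The pattern reads the same on both strands. The stretches around the boxes of 5 genes are given here from 5′ to 3′ on the strand of the gene, with the box in capitals, because they are the letters that this count rests on.
Myl9: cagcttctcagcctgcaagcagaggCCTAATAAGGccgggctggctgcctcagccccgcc
Cnn2: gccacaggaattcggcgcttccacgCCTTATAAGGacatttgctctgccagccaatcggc
Actc1: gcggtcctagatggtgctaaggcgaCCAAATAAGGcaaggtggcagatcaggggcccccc
Ldb3: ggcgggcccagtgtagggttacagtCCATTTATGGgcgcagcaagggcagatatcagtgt
Myl6: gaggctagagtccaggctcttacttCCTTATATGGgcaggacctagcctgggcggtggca

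They lie at chr2:156775278-156775337 (plus strand, Myl9), chr10:79988519-79988578 (plus strand, Cnn2), chr2:114052888-114052947 (minus strand, Actc1), chr14:34588682-34588741 (minus strand, Ldb3) and chr10:128493025-128493084 (minus strand, Myl6). The box of Cnn2 starts 56 bases before the annotated start, that of Myl6 50, that of Actc1 47 and that of Ldb3 35. The sixth gene with a box was Vcl. A box in this window is a match of letters and not a binding site, and no box says only that these letters are not in the window.

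Nearly all contractile genes were at their highest in clusters 6 and 7, called smooth muscle clusters below, a name that rests on genes of this list. By the mean over strains, 20 of the 35 had their highest level in cluster 7 and 14 in cluster 6. Tpm4, a tropomyosin that many cell types use, was the exception, with its highest mean in the fibroblast cluster 4. None of the 35 peaked in cluster 8. The share of all genes that peak in clusters 6 and 7 was not computed. In cluster 6 the sums of C57BL6 and Acta2GFP hold 3 cells each. Per single cell, the 35 genes together took a median of 5.62% of all counts in cluster 7, 4.81% in cluster 6, 0.769% in cluster 8 and between 0.358% and 0.618% in clusters 1 to 5.

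**Figure D1:**
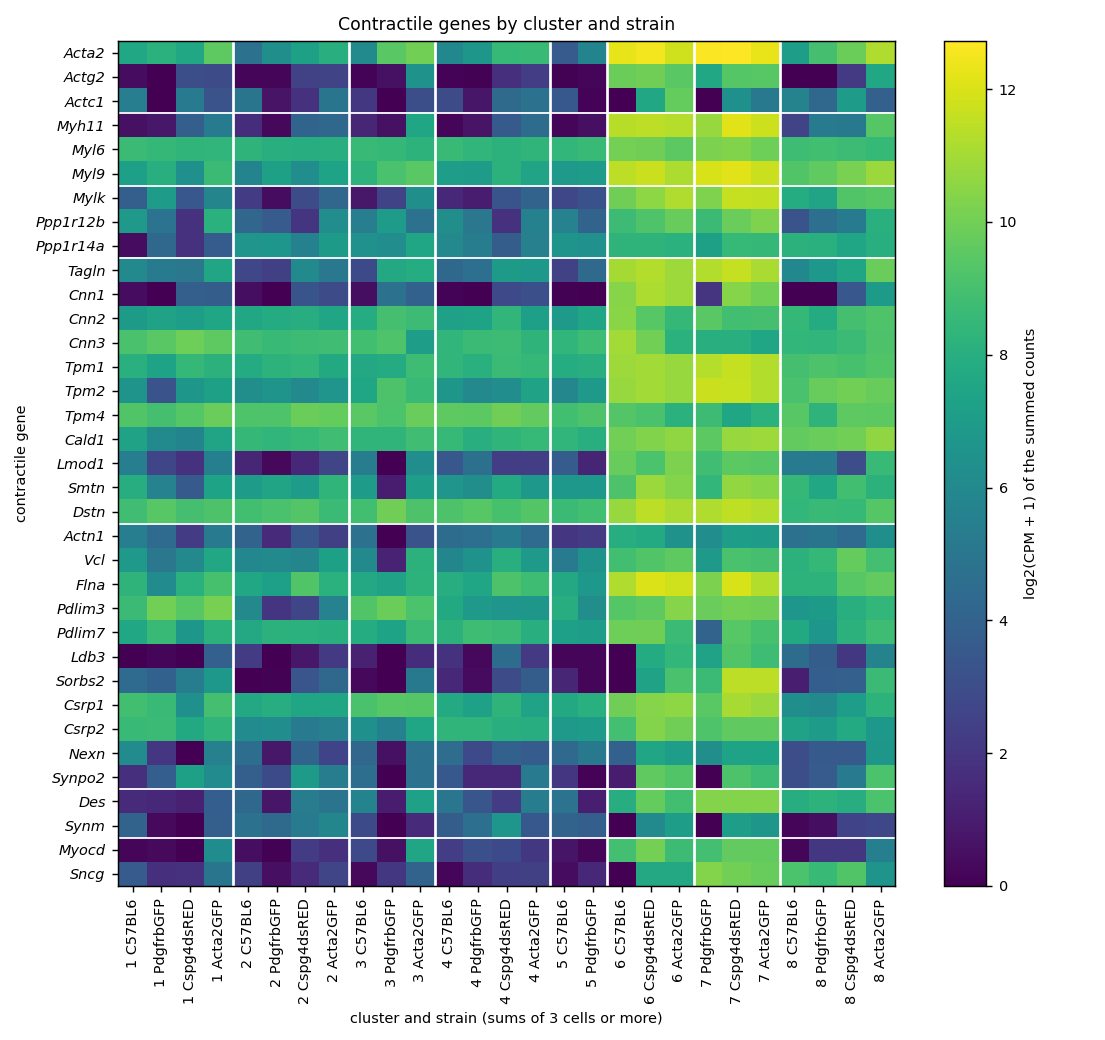
Levels of the 35 contractile genes (rows, grouped by role in the order of the text) as log2(CPM + 1) of counts summed over the cells of each cluster and strain (columns, 27 sums of 3 cells or more). Clusters 6 and 7 form a bright block, and cluster 8 is dimmer, though less so in Acta2GFP. Tpm4 and Cnn3 are about as bright in fibroblast clusters.

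Cells of clusters 7 and 8 hardly overlapped in the summed level of the 35 genes. In PdgfrbGFP, 4 cells of cluster 8 (3.36%) lay above the 10th percentile of cluster 7, which was 26877 CPM. In Cspg4dsRED it was 0 of 29 cells above 44599 CPM, and in Acta2GFP 1 of 15 cells (6.67%) above 37969 CPM. The median cell of cluster 8 held 7804 CPM for C57BL6, 6653 for PdgfrbGFP, 11043 for Cspg4dsRED and 18336 for Acta2GFP. Since the sum is made of genes that the clustering also used, the gap is a description.

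**Figure D2:**
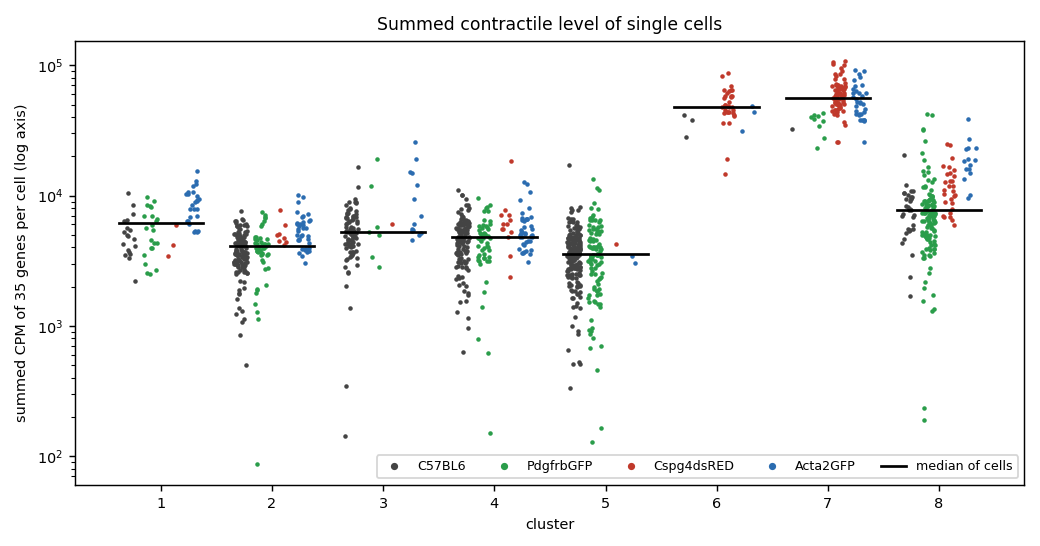
Summed CPM of the 35 genes in each cell (points, log axis) by cluster, with strains side by side and the median of all cells of a cluster as a line. The medians are 56238 CPM in cluster 7, 48109 in cluster 6 and 7688 in cluster 8.

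Acta2, smooth muscle alpha-actin and the most used marker of these cells, was the most abundant of the 3 muscle actins. It is encoded at chr19:34241090-34255590 (minus strand, GRCm38). In cluster 7 its level was 6478 CPM for PdgfrbGFP, 6792 for Cspg4dsRED and 5034 for Acta2GFP, and the lone C57BL6 cell of this cluster held 5239. In cluster 6 it was 4914 CPM for C57BL6, 5753 for Cspg4dsRED and 3645 for Acta2GFP. Levels in these 2 clusters overlapped.

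In cluster 8 the strains spread widely, with 136.1 CPM of Acta2 for C57BL6, 494 for PdgfrbGFP, 945 for Cspg4dsRED and 2340 for Acta2GFP. Each was below every strain of clusters 6 and 7. Acta2 had a count in 80.1% of the cells of cluster 8 (Wilson 95% interval 73.96 to 85.1) and in all cells of clusters 6 and 7. In clusters 1 to 5 it had a count in 56.4% of cells, of which fewer had 10 counts or more (23.7%). After thinning every cell to 50000 counts the shares with a count were 66.2% in cluster 8 and 36.5% in clusters 1 to 5.

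Counts of the shortest abundant genes came near the number of bases they have. For Acta2, merged exons span 2196 bases, and 12 of 39 cells in cluster 6 and 13 cells in cluster 7 had more than 1 count per exon base. Myl9, with 1162 bases, passed 1 count per base in 60 cells of cluster 7, with a median of 1.002 counts per base there. In cluster 7 the CPM of Acta2 fell with the depth of the cell, with a Spearman correlation over cells of -0.87 in Cspg4dsRED (75 cells) and -0.97 in Acta2GFP (33 cells), and that of Myl9 with -0.85 and -0.91. The part of this in the differences of short, abundant genes between clusters was not tested. For the long transcript Myh11 the corresponding correlations with depth were 0.06 and 0.15.

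Actg2, the gamma-actin of enteric smooth muscle, had lower levels than Acta2. Its counts came to 927 CPM for C57BL6, 987 for Cspg4dsRED and 722 for Acta2GFP for cluster 6, and to 189.9 for PdgfrbGFP, 656 for Cspg4dsRED and 695 for Acta2GFP for cluster 7. In cluster 8 there was no count in C57BL6 and PdgfrbGFP, 3.45 CPM in Cspg4dsRED and 189.4 CPM in Acta2GFP, next to the lowest strain of cluster 7. The lone C57BL6 cell of cluster 7 had no count. Cells with a count made up 94.9% of cluster 6, 81.4% of cluster 7 and 12.2% of cluster 8.

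Actc1, the actin of cardiac muscle, was patchy. It ranged from 0 in C57BL6 to 843 CPM in Acta2GFP in cluster 6, from 0 in PdgfrbGFP to 83.7 in Cspg4dsRED in cluster 7, and from 13.7 in Acta2GFP to 126.3 in Cspg4dsRED in cluster 8. The Acta2GFP value of cluster 6 is a sum of 3 cells. The study names Actc1 and Actg2 among genes enriched in the heart smooth muscle cells that express Sost and Cbr2. The summed level of 11 cardiac muscle markers ranged over strains from 3.92 to 690 CPM in cluster 6, from 258.8 to 759 in cluster 7 and from 233.7 to 446 in cluster 8, with none of the 11 at 0 in any of these clusters. In cluster 6 the strains had the same order for Actc1 and for this sum, but in cluster 7 PdgfrbGFP had the highest sum and no count of Actc1, and in cluster 8 Acta2GFP had the highest sum and the lowest Actc1. The sum does not stand for each marker. In cluster 6 against cluster 7, 2 of the 10 markers tested had a fitted log2 fold change above 0, with a median of -2.39. The part of cardiac muscle RNA in the Actc1 level was not tested.

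Per kb of merged exons, the actin pool of a cell differed in type between clusters. Acta2 made up 52.98% ± 1.69 (SD, n = 3 strains) of the CPM per kb of 5 actin genes in cluster 7 and 47.2% ± 6.01 (n = 3) in cluster 6. In cluster 8 it ranged from 4.49% to 47.8% over 4 strains. In cluster 5 it was 0.8288% ± 0.656 (n = 2), where Actb, the non-muscle beta-actin, held 67.8%. Actg2 added 12.3% ± 1.34 (n = 3) in cluster 6 and 6.50% ± 3.91 (n = 3) in cluster 7. These per-kb shares compare levels within a sum and also rest on the crowding of Acta2 reads given above.

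**Figure D3:**
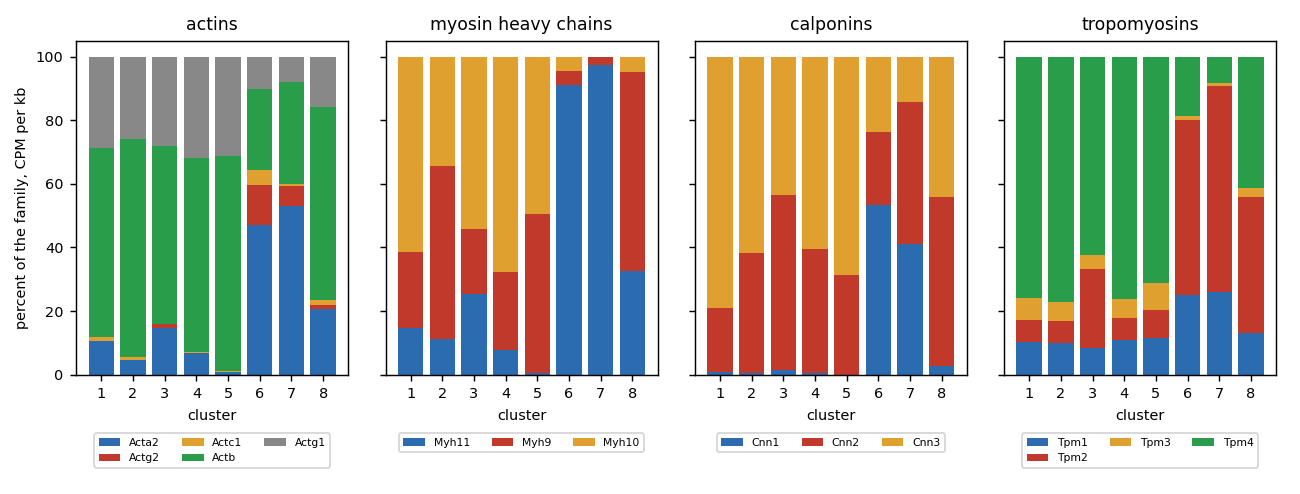
Make-up of 4 protein families by cluster, as the mean over strains of each gene's percent of the family's CPM per kb of merged exons. Acta2, Myh11 and Tpm2 have the largest share of their families in clusters 6 and 7, and Actb and Tpm4 in clusters 1 to 5. Of the calponins Cnn1 leads in cluster 6, Cnn2 in clusters 3, 7 and 8, and Cnn3 in clusters 1, 2, 4 and 5. In cluster 7 Cnn2 averages 44.5% and Cnn1 41.2%, and Cnn1 ranges from 0.287% in PdgfrbGFP to 64.4%.

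Myh11, the heavy chain of smooth muscle myosin and the strictest marker of the lineage, was high in both smooth muscle clusters. In cluster 6 it stood at 2660 CPM for C57BL6, 2836 for Cspg4dsRED and 2568 for Acta2GFP. In cluster 7 it was 1737 CPM for PdgfrbGFP, 4495 for Cspg4dsRED and 3503 for Acta2GFP. Cluster 8 fell far below with 5.15 CPM in C57BL6, 36.3 in PdgfrbGFP and 34.1 in Cspg4dsRED, and with 663.6 in Acta2GFP. Per kb, Myh11 held 97.3% ± 3.08 (SD, n = 3) of the 3 myosin heavy chains Myh11, Myh9 and Myh10 in cluster 7 and 90.96% ± 2.74 (n = 3) in cluster 6. In cluster 8 its share ranged from 3.72% to 78.8%, and Myh9, a non-muscle heavy chain, averaged 62.7%.

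The light chains were present in every cluster to differing degrees. Myl9, the regulatory light chain that the kinase acts on, averaged 3993 CPM ± 627 (SD, n = 3) in cluster 7, 2838 ± 547 (n = 3) in cluster 6 and 1097 ± 538 (n = 4) in cluster 8, against 110.7 to 515 in clusters 1 to 5. Myl6, the essential light chain, was used by nearly every cell, with a count in 98.2% of fibroblasts and 97.5% of cluster 8.

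Of the switch genes, Mylk, the light chain kinase, was at 2469 CPM ± 1079 (SD, n = 3) in cluster 7, 1627 ± 712 (n = 3) in cluster 6 and 432 ± 266.1 (n = 4) in cluster 8. Ppp1r12b, a myosin-targeting subunit of the phosphatase, was between 407 and 1232 CPM in every strain of clusters 6 and 7, and between 8.41 and 268.1 in cluster 8. Ppp1r14a, an inhibitor of the phosphatase, behaved otherwise. Its mean was 300.3 CPM ± 18.9 (n = 3) in cluster 6, 290.3 ± 120.9 (n = 3) in cluster 7 and 249.8 ± 47.6 (n = 4) in cluster 8, differences smaller than the spread in cluster 7.

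Among thin filament proteins, Tagln (transgelin, an actin-bundling calponin relative) followed Acta2. It held 2092 CPM for C57BL6, 2496 for Cspg4dsRED and 1887 for Acta2GFP in cluster 6, and 2451 for PdgfrbGFP, 3085 for Cspg4dsRED and 2211 for Acta2GFP in cluster 7. In cluster 8 it was 59.8 CPM for C57BL6, 107.7 for PdgfrbGFP, 180.4 for Cspg4dsRED and 906 for Acta2GFP. All strains of cluster 8 lay below those of clusters 6 and 7.

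Cnn1, the smooth muscle calponin that inhibits the actin-activated ATPase of myosin, differed widely between strains of cluster 7. In cluster 6 it was at 1353 CPM for C57BL6, 2299 for Cspg4dsRED and 1846 for Acta2GFP. In cluster 7 it was at 1344 CPM in Cspg4dsRED and 1042 in Acta2GFP. In the 9 PdgfrbGFP cells of cluster 7 it was at 2.94 CPM, although those cells held Myh11 and Tagln. Their summed pericyte markers were at 8974 CPM, against 2486 in Cspg4dsRED and 2859 in Acta2GFP of that cluster. The part of this in the Cnn1 level was not tested. In cluster 8 Cnn1 was absent from the sums of C57BL6 and PdgfrbGFP. Among the 3 calponins per kb, Cnn3 held 61.9% ± 4.74 (SD, n = 4) in cluster 2 and 14.3% ± 7.42 (n = 3) in cluster 7.

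Tropomyosins changed type. Tpm2, beta-tropomyosin, held 64.7% ± 1.75 (SD, n = 3) of the 4 tropomyosins per kb in cluster 7 and 54.8% ± 4.85 (n = 3) in cluster 6, but 6.92% ± 1.91 (n = 4) in cluster 2. Tpm4 held 77.3% ± 5.18 (n = 4) in cluster 2 and 8.40% ± 3.06 (n = 3) in cluster 7. In cluster 8 the means were 42.8% ± 10.3 for Tpm2 and 41.2% ± 11.1 for Tpm4 (n = 4), but strains differed in direction. Per kb, Tpm4 was at 309.4 CPM and Tpm2 at 184.7 in C57BL6, and Tpm4 at 138.8 and Tpm2 at 302.9 in PdgfrbGFP. In CPM, Tpm2 averaged 828 ± 207.3 in cluster 8 and 3033 ± 471 in cluster 7, and no strain of cluster 8 reached the lowest strain of cluster 7.

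Cald1, caldesmon, was high in all mural clusters. It had 894 CPM for PdgfrbGFP, 1046 for Cspg4dsRED and 1555 for Acta2GFP in cluster 8, against 733, 1731 and 1870 in cluster 7. Ranges of the 2 clusters overlapped. Lmod1, leiomodin, which starts actin filaments, lay between 450.4 and 1188 CPM in clusters 6 and 7 and between 7.05 and 388 in cluster 8.

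Anchoring proteins differed from each other. Sorbs2, an adaptor of actin and adhesion sites, was at 2843 CPM in Acta2GFP, 2868 in Cspg4dsRED and 415 in PdgfrbGFP in cluster 7, but at 0 for C57BL6, 162.4 for Cspg4dsRED and 537 for Acta2GFP in cluster 6. Csrp1, a LIM protein of smooth muscle, ranged from 707 to 2133 CPM in cluster 7 and from 65.1 to 298.6 in cluster 8. In fibroblast cluster 3 it was at 538 CPM in C57BL6, 681 in PdgfrbGFP and 654 in Acta2GFP, above every strain of cluster 8. Flna (filamin A), which crosslinks actin, lay between 1173 and 4208 CPM in clusters 6 and 7 and between 294.1 and 820 in cluster 8. Its smooth muscle levels were among the highest of the list in CPM, but per kb the mean in cluster 7 was 269.5, against 2778 for Acta2.

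Other anchoring genes varied more between strains, and the pericyte markers of the PdgfrbGFP cells of cluster 7 are given above. Pdlim7, an enigma family LIM protein, was at 983 CPM for C57BL6, 1004 for Cspg4dsRED and 409 for Acta2GFP in cluster 6, and at 15.7 for PdgfrbGFP, 696.5 for Cspg4dsRED and 520.5 for Acta2GFP in cluster 7, where its range took in that of cluster 8. Synpo2, which binds actin and alpha-actinin, had no count in the PdgfrbGFP cells of cluster 7 and 585.5 CPM in those of Cspg4dsRED. Csrp2, a relative of Csrp1, was steadier and averaged 935 CPM ± 427 (SD, n = 3) in cluster 6, 718 ± 110.9 (n = 3) in cluster 7 and 154.6 ± 45.6 (n = 4) in cluster 8. Nexn (nexilin), an actin-binding protein, was at most at 179.9 CPM in the sums of clusters 6, 7 and 8.

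Desmin (Des) had nearly the same level in the summed counts of the 3 strains of cluster 7, with 1324 CPM for PdgfrbGFP, 1342 for Cspg4dsRED and 1326 for Acta2GFP. The mean of the CPM of single cells varied more between strains, at 1306 ± 243.4 (SD, n = 3). In summed counts it was lower in cluster 6, with 242.9 for C57BL6, 855 for Cspg4dsRED and 464 for Acta2GFP, and in cluster 8 it ranged from 243.2 to 548. Synm (synemin), which joins desmin filaments, was at 0 in the PdgfrbGFP cells of cluster 7 and between 104.2 and 141.1 CPM in the other 2 strains.

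Myocd, the coactivator, was itself detected in smooth muscle clusters. It was at 479 CPM for PdgfrbGFP, 816 for Cspg4dsRED and 827 for Acta2GFP in cluster 7, and between 418 and 1059 in cluster 6. In cluster 8 it was at 0.136 CPM for C57BL6, 3.13 for PdgfrbGFP, 3.15 for Cspg4dsRED and 43.9 for Acta2GFP. Cells with a count were 97.4% of cluster 6, 90.7% of cluster 7 and 20.9% of cluster 8, the last close to the 19.1% of clusters 1 to 5 and at a lower median depth (167873 counts per cell in cluster 8 against 243989 in cluster 7). Sncg, gamma-synuclein, averaged 1074 CPM ± 231.4 (SD, n = 3) in cluster 7, 411 ± 230.6 (n = 4) in cluster 8 and 136.5 ± 118.2 (n = 3) in cluster 6, where C57BL6 had no count. Cells with a count of Sncg made up 76.9% of cluster 6 and 77.6% of cluster 8, and in Acta2GFP its level was 203.5 CPM in cluster 6 and 96.2 in cluster 8.

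**Figure D4:**
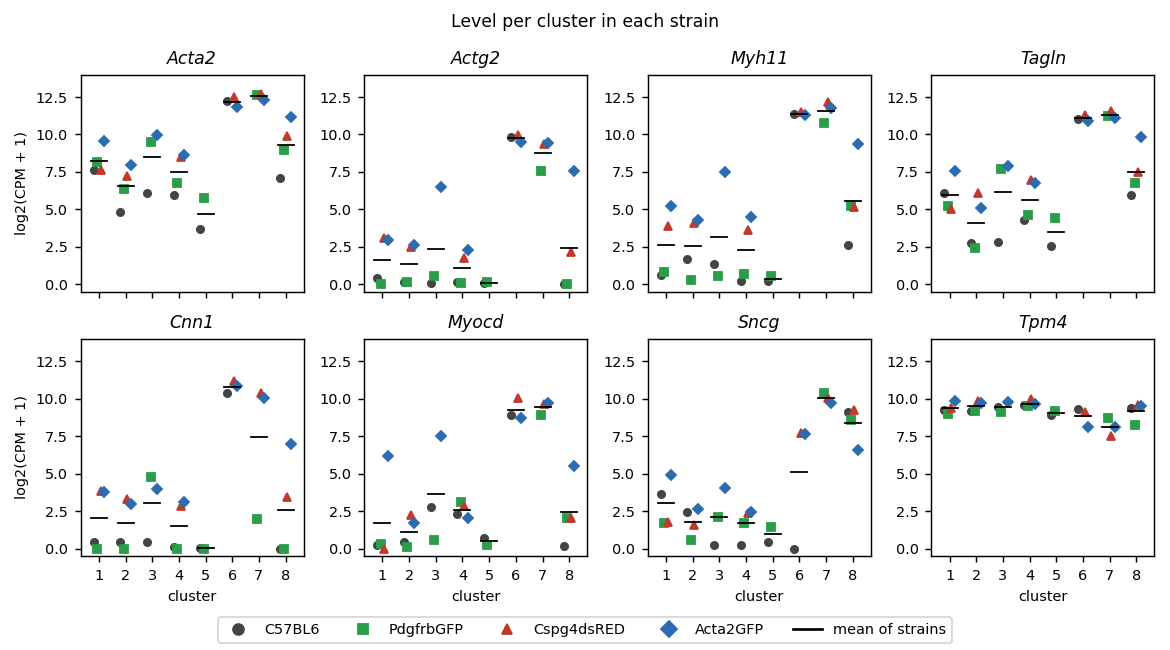
Level of 8 genes as log2(CPM + 1) in each cluster, 1 point per strain (sums of 3 cells or more) and the mean as a line. In cluster 8 the Acta2GFP point (diamond) is the highest for Acta2, Actg2, Myh11, Tagln, Cnn1 and Myocd and the lowest for Sncg, and in cluster 7 the PdgfrbGFP point of Cnn1, at 1.98, lies far below the other strains.

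Mural cells were compared with fibroblasts on counts summed per strain (4 strains on each side) with edgeR's quasi-likelihood test, and p-values were adjusted over all 15117 genes tested by the Benjamini-Hochberg method. Of the 35 contractile genes 19 were higher in mural cells at an adjusted p under 0.05 and none was lower. Over all genes 5.93% were called, 2.45% higher and 3.47% lower. The median log2 fold change was 2.42 over the 35 genes and 0.02 over all genes, and 23 of the 35 were higher in mural cells in 4 of 4 strains, as were 11.9% of all genes. Mural sums mix clusters 6, 7 and 8 in proportions that differed between strains, and the part of the sort in this was not tested.

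Of the 6 genes of myosin and its switch 5 passed, and Ppp1r12b did not. Myh11 rose by 6.84 ± 1.57 on the log2 scale (SE), with an adjusted p of 0.0292 in edgeR, from 0.868, 0.469, 12.98 and 41.5 CPM in fibroblasts to 374, 204.8, 3148 and 2492 in mural cells of C57BL6, PdgfrbGFP, Cspg4dsRED and Acta2GFP. It had a count in 21.6% of cells in clusters 1 to 5 and 98.3% of cluster 7, and in 12.3% and 98.3% after thinning to 50000 counts. Mylk rose by 6.33 ± 0.97 (adjusted p = 0.00453), Myl9 by 3.50 ± 0.47 (adjusted p = 0.00201) and Ppp1r14a by 2.19 ± 0.36 (adjusted p = 0.00658). Myl6, present in nearly all cells, rose by only 1.15 ± 0.27 (adjusted p = 0.0357).

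Of the actins, Acta2 passed, with a log2 fold change of 3.67 ± 0.81 and an adjusted p of 0.0246 in edgeR. Its mural levels were 841, 1086, 5373 and 4029 CPM in C57BL6, PdgfrbGFP, Cspg4dsRED and Acta2GFP, against a lowest of 43.59 (C57BL6) and a highest of 492.1 (Acta2GFP) in fibroblasts. The sides did not overlap. Actg2 (6.20 ± 1.71, adjusted p = 0.0650) and Actc1 (2.59 ± 0.97, adjusted p = 0.184) did not pass.

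Of the 11 thin filament genes 7 passed. Lmod1 had the largest log2 fold change among these (4.92 ± 0.84), followed by Tagln (4.39 ± 0.88), Tpm2 (3.83 ± 0.42), Smtn (2.42 ± 0.54), Tpm1 (2.24 ± 0.38), Cald1 (1.99 ± 0.30) and Cnn2 (1.15 ± 0.27), with adjusted p-values in edgeR from 0.000731 for Tpm2 to 0.0354 for Cnn2. Cnn1 had the largest fitted value of all 35 (7.10 ± 1.94) and missed the threshold at an adjusted p of 0.0633. The fitted values of Cnn3 (-0.07 ± 0.25) and Tpm4 (-0.69 ± 0.27) were the only ones below 0 among the 35, and that of Cnn3 turned positive under the size factors of DESeq2 (34 of 35 positive). With the strain block 32 of 35 were positive, and Synm went from 0.68 ± 1.07 to -0.12. Smtn is smoothelin, found in contractile smooth muscle. Tagln shares 62.4% of its exon bases with Gm48529 on the opposite strand, Cnn3 17.7% with Gm42928 and Smtn 16.3% with Gm11946, and since the strand setting of the counting was not stated, reads there cannot be told apart.

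Of the 11 anchoring genes 3 passed, namely Ldb3 (5.45 ± 1.36, adjusted p = 0.0435), a Z-disc PDZ and LIM protein, Actn1 (2.41 ± 0.48, adjusted p = 0.0160), the alpha-actinin of dense bodies, and Vcl (1.96 ± 0.40, adjusted p = 0.0172), vinculin. Vcl shares 25.5% of its exon bases with Ap3m1 on the opposite strand, so its reads there cannot be told from those of Ap3m1 either. Des (4.64 ± 0.73, adjusted p = 0.0051), Myocd (4.90 ± 1.26, adjusted p = 0.0476) and Sncg (6.53 ± 0.74, adjusted p = 0.00082) passed as well. The fitted log2 fold changes of the 16 that did not pass ran from -0.69 to 7.10.

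With the strain as a block, 19 genes also passed, of which 17 were the same, and 2.1% of all genes were called higher and 2.71% lower (4.81% in all). Actg2 and Flna then passed (blocked adjusted p = 0.0110 and 0.0178), and Myl6 and Cnn2 did not (0.0861 and 0.0550). Over the 10 alternatives the adjusted p ran from 2.71e-05 to 0.27 for the first pair and from 0.000182 to 0.194 for the second. Without Acta2GFP 9 of the 35 passed (2.7% of all genes), without C57BL6 12 (2.79%), without Cspg4dsRED 10 (3.91%) and without PdgfrbGFP 15 (2.66%).

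**Figure D5:**
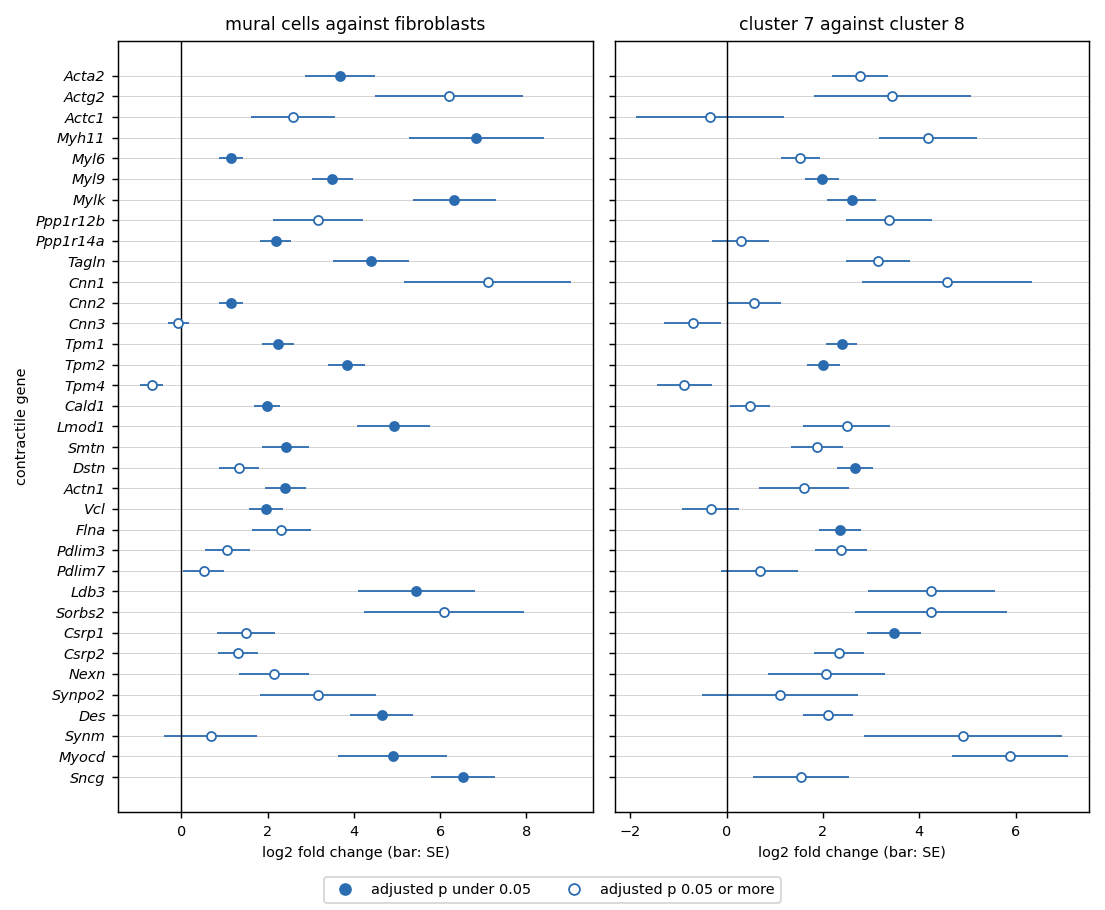
Fitted log2 fold change of the 35 genes (points) with its standard error (bars), for mural cells against fibroblasts (left) and cluster 7 against cluster 8 (right). Filled points have an adjusted p under 0.05 in edgeR, 19 on the left and 7 on the right. Cnn3 and Tpm4 are the only points below 0 on the left, where that of Cnn3 turned positive under the size factors of DESeq2.

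Partners outside the list moved less. None of 11 non-muscle cytoskeleton genes (Actb, Actg1, Myh9, Myh10 and others) passed in either direction. Of 5 genes around serum response factor, Mef2c was higher in mural cells (2.86 ± 0.27, adjusted p = 0.000419 in edgeR). Of 6 focal adhesion genes, Palld (4.05 ± 0.85, adjusted p = 0.0202) and Tns1 (2.75 ± 0.48, adjusted p = 0.00891) were higher. Among the cardiac muscle markers 1 of 10 tested, Tnnt2, was also higher in mural cells (3.06 ± 0.65, adjusted p = 0.0205). All 10 had a fitted log2 fold change above 0, with a median of 1.45, and the part of cardiac muscle RNA in the values of Ldb3, Des and Actc1, which heart muscle also uses, was not tested.

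Cluster 7 was compared with cluster 8 in a fit over the sums of clusters 6, 7 and 8, where cluster 7 had 3 strains and cluster 8 had 4. The test passed 7 of the 35 genes, all higher in cluster 7, while 0.224% of the 12952 genes tested were called, 0.124% higher and 0.1% lower. These were Csrp1 (log2 fold change 3.48 ± 0.56), Dstn (2.67 ± 0.37), Mylk (2.60 ± 0.51), Tpm1 (2.39 ± 0.32), Flna (2.35 ± 0.44), Tpm2 (2.01 ± 0.34) and Myl9 (1.98 ± 0.36), with adjusted p-values in edgeR from 0.00643 to 0.0469. Dstn, destrin, depolymerises actin filaments and is used by most cells. Its level was 2339, 2940 and 2544 CPM in cluster 7 of PdgfrbGFP, Cspg4dsRED and Acta2GFP, against 388, 362 and 663 in cluster 8 of the same strains.

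The named markers did not pass, with errors above those of the genes that did. Myocd (5.88 ± 1.20, adjusted p = 0.0522 in edgeR), Acta2 (2.76 ± 0.58, adjusted p = 0.0575), Tagln (3.14 ± 0.67, adjusted p = 0.0595), Myh11 (4.18 ± 1.02, adjusted p = 0.115), Cnn1 (4.57 ± 1.76, adjusted p = 0.433) and Actg2 (3.44 ± 1.63, adjusted p = 0.626) did not pass, and Actc1 was at -0.34 ± 1.53 (adjusted p = 1.0). Each but Actc1 was higher in cluster 7 in all 3 strains that held both clusters. For Acta2 the log2 difference within a strain, with 1 CPM added to each level, was 3.71 for PdgfrbGFP, 2.84 for Cspg4dsRED and 1.10 for Acta2GFP. For Myh11 it was 5.54, 7.00 and 2.40. In all, 25 of the 35 genes were higher in cluster 7 in 3 of 3 strains, as were 11.2% of all genes tested.

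With the strain as a block 14 of the 35 passed, the same 7 and in addition Acta2, Myh11, Tagln, Myocd, Ppp1r12b, Pdlim3 and Sorbs2, whose blocked adjusted p-values lay between 0.0145 and 0.0422. With the block 0.425% of all genes were called, 0.278% higher and 0.147% lower. Over 11 alternatives the adjusted p of these 7 added genes ran from 8.46e-16 to 1.0. The count rested on single strains, since 0 of the 35 passed without Cspg4dsRED and 0 without PdgfrbGFP (0 and 0.00722% of all genes), while the median log2 fold change of the 35 was 2.06 and 2.02, against 2.33 with all strains. In the first case edgeR called none of 12515 genes, 559 had an unadjusted p under 0.05, and of the 35 genes 19 did. Without Acta2GFP 16 passed, with 0.446% of all genes.

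Cluster 8 of Acta2GFP stood apart from cluster 8 of the other strains. It held the highest level for Acta2, Actg2, Myh11, Tagln, Cnn1 and Myocd, as given above. The summed pericyte markers were at 6942 CPM there, against 18860 to 23600 in the other 3 strains, and the summed fibroblast markers were at 3334 CPM, against 960 to 1370. The summed markers of large-vessel smooth muscle were at 1142 CPM there, against 24.75 to 187.5 in the other 3 strains. This sum holds 15 cells from a sort on the Acta2 reporter, and the part of the sort was not tested.

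Between clusters 6 and 7 none of the 35 genes passed the test (edgeR, 12952 genes tested, 0.27% called, 0.0695% higher and 0.201% lower). Of the 35, 4 had an unadjusted p under 0.05, as did 7.46% of all genes, and DESeq2 passed none either. With the strain block none passed either, with 0.224% of all genes called, 0.0772% higher and 0.147% lower. Without a filter on low counts 2 were lower in cluster 6. The fitted values ran from -3.13 for Sorbs2 to 3.14 for Actc1. The named markers had Acta2 at -0.54 ± 0.60, Myh11 at -0.40 ± 1.01, Tagln at -0.43 ± 0.69, Cnn1 at 1.15 ± 1.74, Actg2 at 0.66 ± 1.66, Myocd at -0.25 ± 1.11 and Actc1 at 3.14 ± 1.77 on the log2 scale. Such errors leave room for differences of several fold, so the 2 clusters are not shown to be alike.

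The members with an unadjusted p under 0.05 in this comparison were Cnn3 (1.99 ± 0.64), Sncg (-3.10 ± 1.16), Des (-1.50 ± 0.57) and Tpm2 (-0.91 ± 0.36). Cnn3, which fibroblasts also used, was at 1972 CPM in the 3 C57BL6 cells of cluster 6, at 1033 in Cspg4dsRED and at 278.5 in Acta2GFP. The summed fibroblast markers of these strains were at 12490, 3223 and 3108 CPM in cluster 6, against 308.6 to 776.5 in the 3 strains of cluster 7, and 2 of the 5 markers passed as higher in cluster 6 with and without the strain block. The part of fibroblast RNA in the values of cluster 6 was not tested. In the 2 strains with both clusters, 17 of the 35 genes were lower in cluster 6 in both strains (35.1% of all genes), 8 were higher in both (20.6%) and 10 differed in sign.

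Among fibroblasts cluster 1, which the study regards as likely valve cells, was compared with clusters 2 to 5 over 4 strains. Only Pdlim3, an actin-associated LIM protein, passed, higher in cluster 1 (2.48 ± 0.43, adjusted p = 0.0202 in edgeR), and 1.33% of the 13201 genes tested were called, 0.561% higher and 0.773% lower. With the strain block 0.742% of all genes were called, 0.364% higher and 0.379% lower, and the adjusted p of Pdlim3 was 0.077, with a range of 6.22e-06 to 0.169 over the 10 alternatives. It had 402, 1046, 680 and 1122 CPM in cluster 1 of C57BL6, PdgfrbGFP, Cspg4dsRED and Acta2GFP. Its level in cluster 3 was 626, 937 and 553 CPM in C57BL6, PdgfrbGFP and Acta2GFP, within the range of cluster 1, whereas in cluster 2 it lay between 2.81 and 62.7.

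The markers Acta2 (0.85 ± 0.66), Tagln (0.60 ± 0.80), Myocd (0.94 ± 1.81), Actc1 (0.77 ± 1.53), Cnn1 (0.60 ± 1.66), Myh11 (-0.19 ± 1.60) and Actg2 (-0.55 ± 1.80) did not pass between cluster 1 and clusters 2 to 5. Acta2 had a count in 94.3% of cluster 1 cells and in 45.2% to 60.9% of cells in clusters 2 to 5. These shares pool strains that differ in detection, and Acta2GFP gave 26 of the 70 cells of cluster 1 but 2 cells of cluster 5. Within strains its level in cluster 1 was 193.5 CPM in C57BL6 and 283.7 in PdgfrbGFP, against 38.05 and 98.33 in clusters 2 to 5, and 752.6 in Acta2GFP against 419.1, but 199.9 against 253.1 in Cspg4dsRED.

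In cluster 3, Myl9 was above its level in clusters 1, 2, 4 and 5 in each of the 3 strains with 3 cells or more, while Acta2 was so in PdgfrbGFP and Acta2GFP but not in C57BL6. Acta2 stood at 67.1 CPM there for C57BL6, 720.2 for PdgfrbGFP and 1021 for Acta2GFP, and Myl9 at 299.6, 542 and 702 in that order. The PdgfrbGFP and Acta2GFP values are sums of 7 and 14 cells. No test was made of cluster 3 alone.

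The number of contractile genes found in a fibroblast depended on the strain. The median fibroblast had a count for 14 of the 35 genes in C57BL6, 15 for PdgfrbGFP, 27 for Cspg4dsRED and 31 for Acta2GFP. After thinning to 50000 counts it was 10, 9, 19 and 22. The number of all genes detected also differed, with a median over all cells of 4125, 3358, 4265 and 6388 in the same order of strains, and its part in these counts was not tested. The summed CPM of the median fibroblast moved less, from 4142 in C57BL6 and 3992 in PdgfrbGFP to 5407 in Cspg4dsRED and 5685 in Acta2GFP. Within C57BL6, the fibroblasts of the pair of plates with more than 1 cell had 48.57 and 36.15 CPM of Acta2.

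For some of the 35 genes, counts in fibroblast wells moved with those of mural wells on the same plate. Within a plate, the count of a gene in fibroblast wells was set beside its sum over the mural wells that share its row or column. For Acta2 the Spearman correlation over wells was 0.41 on the 1 C57BL6 plate with enough mural wells, 0.70 for PdgfrbGFP, 0.61 for Cspg4dsRED and 0.53 for Acta2GFP, and for Myh11 it was 0.39, 0.40, 0.80 and 0.79. For Myl6, which fibroblasts use themselves, it lay between -0.06 and 0.20. A value of 0.3 or more was found for 3 of the 35 genes on the C57BL6 plate, 10 for PdgfrbGFP, 12 for Cspg4dsRED and 16 for Acta2GFP, and the median over the 35 was 0.08, 0.18, 0.18 and 0.28. Such counts over all genes were not made, so it is not known whether these are unusual. Neither the depth of the wells nor the number of mural wells in a row or column was adjusted for. The wells of 1 plate share a library preparation and sequencing run. The part of this relation in the fibroblast and cluster 8 levels was not tested.

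Within a cluster most pairs of the 35 genes had weak correlations from cell to cell. The median Spearman correlation of log2(CPM + 1) over pairs of genes was 0.10 in cluster 6 (33 Cspg4dsRED cells), 0.10 and 0.14 in cluster 7 (75 Cspg4dsRED and 33 Acta2GFP cells) and 0.05 to 0.07 in cluster 8. The 90th percentile over pairs was 0.38 to 0.45 in clusters 6 and 7 and 0.22 to 0.28 in cluster 8. A tight set stood out beside Acta2 in clusters 6 and 7, namely Myl9, Myl6, Tagln and Tpm2. Their correlations with Acta2 were 0.89, 0.79, 0.77 and 0.74 in Cspg4dsRED cells of cluster 7, while each also correlated with depth, at -0.85, -0.79, -0.68 and -0.65. For Myh11 the correlation with Acta2 was -0.02 in the same cells. All values share the depth of the cell and, in small counts, its noise.

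Outside the lists, 5 genes followed the mean of the 35 most closely over the 27 sums, among 10326 genes with a mean of 10 CPM or more. They were Rcan2 (Spearman correlation 0.913), a regulator of calcineurin, Stom (0.889), a membrane scaffold protein, Luzp1 (0.883), Ap3m1 (0.878) and Pkia (0.839), an inhibitor of protein kinase A. Rcan2 averaged 544 CPM in cluster 6, 1024 in cluster 7, 101.7 in cluster 8 and 11.3 in clusters 1 to 5. Ap3m1 overlaps Vcl, so part of its reads may be those of Vcl. Within the list the highest values were those of Flna and Myh11 (0.907 each) and the lowest those of Cnn3 (-0.205) and Tpm4 (-0.142), where each gene is also part of the mean.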

How the data were processed

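Per the labels, Smart-seq2 libraries of sorted single heart cells were sequenced, and the deposited table holds raw read counts per gene and cell. Trim Galore was used by the authors to trim reads, which they mapped to GRCm38 with TopHat2, removed what they call doublets with samtools (the sources do not say if that means duplicates) and counted with featureCounts; the annotation release and strand setting are not given in the sources used here. The authors filtered cells on counts, genes (very many were taken as a potential doublet) and signatures of other cells, and no doublet caller was run here. The counts were taken as deposited. ERCC spike-ins (1.82% of counts) were left out of totals and tests. Genes were matched by Ensembl identifier to GENCODE M21.

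Counts were summed per strain and cluster or side, and sums of 3 cells or more were kept. The total of a cell gave the depth, and intervals cover counting error only, since reads lack molecular identifiers. Sums were tested with edgeR 4.0.16 in R 4.3.3 (TMM, filterByExpr with a minimum count of 10, quasi-likelihood F test, Benjamini-Hochberg, threshold 0.05). The step was tested on simulated data. Standard errors were derived from F, as the size of the log2 fold change over its square root. The labels do not say whether sums of 1 strain share mice. By the titles the sums of each reporter strain share 1 plate, and those of C57BL6 share 1 of its 3 plates in part, so the strain pairs them, and the fit with the strain as a replicate block was run beside the one without. Levels are CPM of summed counts, with the mean and SD over strains. DESeq2 1.42.0, its size factors, no filter, sums of 10 cells or more, thinning to 50000 counts (2 cells were shallower) and leaving out each strain were the alternatives. Cells named by the plate starts of the table were matched by title. Fitted values are printed for genes that passed and for Acta2, Actg2, Actc1, Myh11, Tagln, Cnn1 and Myocd, and in cluster 6 against cluster 7 and for Cnn3 and Tpm4 also for others chosen after their values were seen. The members, the gene lists and the tests were chosen with earlier results of these data known. One list of pathway genes is not reported here.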

Additional observations from a re-analysis of the deposited data

Results flagged for a closer look

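Levels of the 35 genes in groups of 4 strains were screened with Dixon's test (35 genes in each of 3 sets, namely cluster 8, all mural cells and all fibroblasts). A level was marked when its gap to the next strain was over Dixon's 95% critical value as a share of the whole range, which chance gives in about 1 of 20 groups, and 14 were. Of all genes tested, 17% were marked in cluster 8, 12.1% in mural cells and 8.37% in fibroblasts, against 13, 0 and 1 of the 35. The genes of a set share their libraries, so the marks are not independent.

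In cluster 8, 12 of the marked values were the high value of Acta2GFP, which was the mark of 6.34% of all genes there. They were Actg2 at 189.4 CPM, Myh11 at 664, Ppp1r12b at 268.1, Tagln at 906, Cnn1 at 123.5, Lmod1 at 388, Dstn at 663, Actn1 at 80.4, Sorbs2 at 406, Nexn at 105.6, Synpo2 at 564 and Myocd at 43.9. For Myh11 the highest of the other 3 strains was 36.3 CPM, for Synpo2 36.15 and for Dstn 388. The summed pericyte and fibroblast markers of this sum of 15 cells also differed from the other strains, as given above, and their part was not tested.

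Tpm4 was marked in cluster 8 for its low level in PdgfrbGFP, 306 CPM, against 682 to 756 in the other strains. Myocd was marked in fibroblasts for its level in Acta2GFP, 38.03 CPM, against 2.14 to 4.45 in the others. On that plate the counts of Myocd in fibroblast wells had a Spearman correlation of 0.48 with its sum over the mural wells that share a row or column.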

How the results depend on the processing

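Shares are percents of the genes tested, and counts are of the 35. For mural cells against fibroblasts (5.93%, 19) the 19 calls kept their direction in all alternatives. DESeq2 gave 12.7% and 28, leaving out a strain 2.66 to 3.91% and 9 to 15, and the replicate block 4.81% and 19. For cluster 7 against cluster 8 (0.224%, 7), the replicate block gave 0.425% and 14, DESeq2 size factors 0.394% and 10, DESeq2 3.66% and 5, no filter 0.575% and 18, sums of 10 cells or more 0.381% and 5, thinned cells 0.473% and 8, only the clusters compared 0.194% and 2, and leaving out a strain 0 to 0.446% and 0 to 16. For cluster 6 against cluster 7 (0.27%, 0), DESeq2 gave 3.27%, no filter 0.53% and 2, sums of 10 cells or more 0 (690 genes at an unadjusted p under 0.05), only the clusters compared 0.137%, leaving out a strain 0.0289 to 0.327%, and the replicate block 0.224% and 0. For cluster 1 against clusters 2 to 5 (1.33%, 1), the replicate block gave 0.742% and 0, DESeq2 5.22% and 5 (3 higher, 2 lower), sums of 10 cells or more 0.748% and 0, and leaving out a strain 0.201 to 0.748% and 0 to 1.

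The fitted sign turned under at least 1 alternative for 2 of the 35 genes in mural cells against fibroblasts, 5 in cluster 7 against 8, 10 in cluster 6 against 7 and 12 in cluster 1 against clusters 2 to 5, none of them called there. Of the markers with printed values, these were Actc1, Myocd, Actg2 and Cnn1. Actc1 in cluster 7 against 8 was 0.23 with sums of 10 cells or more and 0.15 with thinned cells. Myocd in cluster 6 against 7 was 0.64 with the replicate block, 0.31 with sums of 10 cells or more, and -0.73 to 0.09 on leaving out a strain, the highest without Acta2GFP. In cluster 1 against clusters 2 to 5 the replicate block gave 0.02 for Actg2, -0.18 for Actc1, -0.11 for Cnn1 and -2.58 for Myocd, which was -4.03 to 1.08 on leaving out a strain, the lowest without Acta2GFP. The block moved the median log2 fold change of all genes from 0.02 to -0.2 for mural cells, from -0.17 to -0.6 in cluster 7 against 8, from -0.31 to -0.47 in cluster 6 against 7 and from -0.03 to -0.47 in cluster 1. Genes of the 35 with a count in 90% or more of cluster 7 cells went from 25 to 14 at 10 counts or more. The cause was not tested. A comparison had 2 to 4 strains a side.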
